A study of Lotus japonicus with 14 samples.

Results

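The 112 gene models described here were the steadiest of the well-expressed genes of Lotus japonicus, a model legume, over uninoculated roots and developing nodules. They were chosen from 38476 gene models by their measured level, in CPM (reads on a gene model relative to the size of its library) with TMM scaling, which sets the libraries to a common scale through the bulk of the genes. Each had a mean of at least 100 CPM over 14 libraries, less than 1000 CPM in both roots, and a highest value at most 1.5 times its lowest. Of the 38476 gene models, 1860 reached the mean and 1780 also met the root limit, and these 1780 are called gene models of the same level below. The 112 are 6.29% of the 1780. Level and spread over the 14 libraries chose them, so both are given as a description, and no test of their stability is offered.

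The plants were the wild type, accession MG20 (Miyakojima), and the mutant apn1, labelled Fix-. The sample titles spell the mutant anp1, and the study design's spelling is used here. Plants of both genotypes grew in vermiculite with nitrogen-free medium, and at 7 days after planting they were inoculated with Mesorhizobium loti strain MAFF303099 or strain TONO, or left uninoculated. Nodule primordia and young nodules cut from the roots at 5, 7 and 10 days after inoculation (dai) gave 12 libraries, and an uninoculated root of each genotype gave 1 library each. Each condition is therefore 1 library, with no replicate error of its own, and the number of plants behind a library is not given in the sources used here. Between nodules and roots, the organ, the inoculation and the plant's age cannot be told apart, and the mutation cannot be told apart from other differences between the plant lines.

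A legume nodule forms when cortical cells of the root divide again and are colonised by rhizobia, which then fix nitrogen inside the plant cells. The gene mutated in apn1 is known to code for an aspartic peptidase. During this change of organ many genes are switched on or off, so genes with a steady RNA level are of use as a scale: quantitative PCR divides the signal of a gene of interest by that of such reference genes, and scaling methods for sequencing counts rest on a bulk of genes that hold their level. Reference genes in common use code for ubiquitin, elongation factors, actin, tubulin, ATP synthase subunits or phosphatase subunits. The deposited gene models carry identifiers only, none of which matched the name table at hand, so it is not known here whether any of the 112 is one of these, and no role or sequence is given for them. For the same reason the labelled tissues were not checked against marker genes. An identifier such as chr1.CM0644.240.r2.a names a chromosome, a contig and a number on that contig.

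The libraries held 33981124 to 58395305 counts on the gene models, with the 4 libraries of 10 dai the shallowest. Among the 112 stable gene models the smallest count in any library was 2443, of chr1.CM0393.1200.r2.d, with an exact 95% Poisson interval of 2347 to 2542. Counting error was therefore at most about 4.05% to either side of a value, and this covers no other error, because PCR copies of 1 molecule were not told apart by molecular identifiers. The median SD of the log2 level over the 14 libraries was 0.15, against 0.017 for counting error alone. In every one of the 112 the spread was larger than counting error, by a factor of 3.14 in chr3.CM0226.270.r2.m to 23.9 in LjSGA_000591.1.1. How much of this came from the conditions and how much from plants or library preparation cannot be told apart without replicates.

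Among the 1780 gene models of the same level a steady RNA level was the exception. Their median highest-to-lowest ratio was 2.83, and 1283 of them (72.1%) varied more than 2-fold over the 14 libraries. A ratio above 10 was found in 317 (17.8%), and 16 had a library at 0. The steadiest gene model had a ratio of 1.17, and the median of the 112 was 1.42. Only 2 of the 112 stayed within a ratio of 1.2, 23 within 1.3 and 48 within 1.4. No gap in the distribution sets the 112 apart, and their limit of 1.5 lies on its rising flank.

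**Figure D1:**
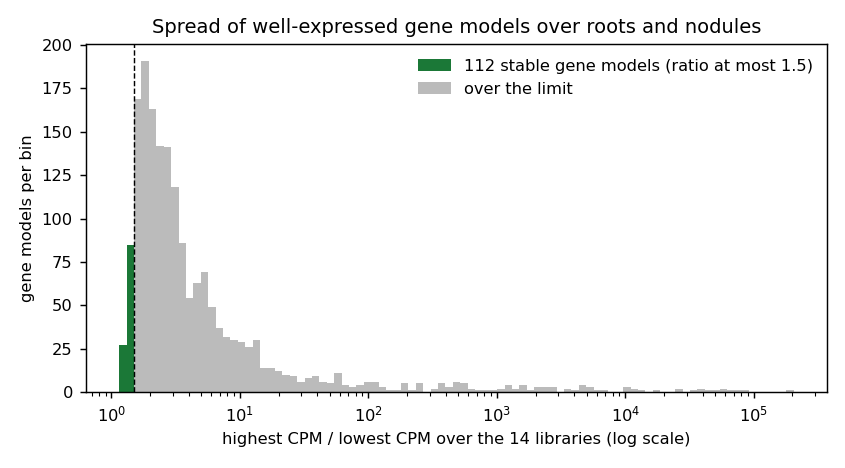
Number of gene models (vertical axis) by highest-to-lowest CPM ratio over the 14 libraries (horizontal axis, log scale), for the gene models of the same level that had no library at 0. The 112 stable gene models, in green, make up the low end of the distribution, up to the dashed line at 1.5.

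The steadiest of all was chr1.CM0644.240.r2.a, of chromosome 1. Its level in roots was 120.0 CPM in wild type and 123.7 CPM in apn1. In wild type nodules at 5, 7 and 10 dai it had 111.3, 122.6 and 118.7 CPM with MAFF303099 and 115.2, 124.7 and 127.9 CPM with TONO. In apn1 nodules it had 115.5, 129.5 and 125.8 CPM with MAFF303099 and 121.0, 130.7 and 117.1 CPM with TONO. The lowest library was thus wild type with MAFF303099 at 5 dai and the highest apn1 with TONO at 7 dai, and nodules lay on both sides of the roots. Its coefficient of variation over the 14 libraries was 4.74%.

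Close behind came chr3.CM0226.270.r2.m, of chromosome 3, with a ratio of 1.18 and the smallest coefficient of variation of the 112, 4.65%. Its roots had 114.2 CPM in wild type and 107.3 CPM in apn1. The 6 wild type nodule libraries ran from 97.6 CPM with MAFF303099 at 7 dai to 103.9 CPM with TONO at 7 dai. The 6 apn1 nodule libraries ran from 97.0 CPM with TONO at 7 dai to 109.0 CPM with TONO at 5 dai. The wild type root was the highest of the 14, and over the nodules alone the ratio was 1.12, the smallest among the 112.

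Next in order was LjSGA_000583.1, with a lowest, median and highest level of 475.3, 523.4 and 576.1 CPM. It was highest in the wild type MAFF303099 library of 7 dai and lowest in apn1 with TONO at 10 dai. The levels of chr6.CM0778.10.r2.d ran from 242.5 CPM in apn1 with MAFF303099 at 7 dai to 296.9 CPM in apn1 with TONO at 10 dai, with a median of 269.3 CPM. For chr1.CM0318.60.r2.d the lowest, median and highest were 127.5, 149.5 and 158.3 CPM, and the lowest was wild type with TONO at 10 dai. In LjSGA_081540.1 that same library was the highest, at 114.6 CPM, above a median of 100.5 CPM and a lowest of 91.9 CPM in apn1 with TONO at 10 dai. No library was highest in more than 1 of the 6 steadiest gene models, and apn1 with TONO at 10 dai was lowest in 2 of them. CPM is not a level per length, so these values compare libraries within a gene model and not gene models with each other.

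**Figure D2:**
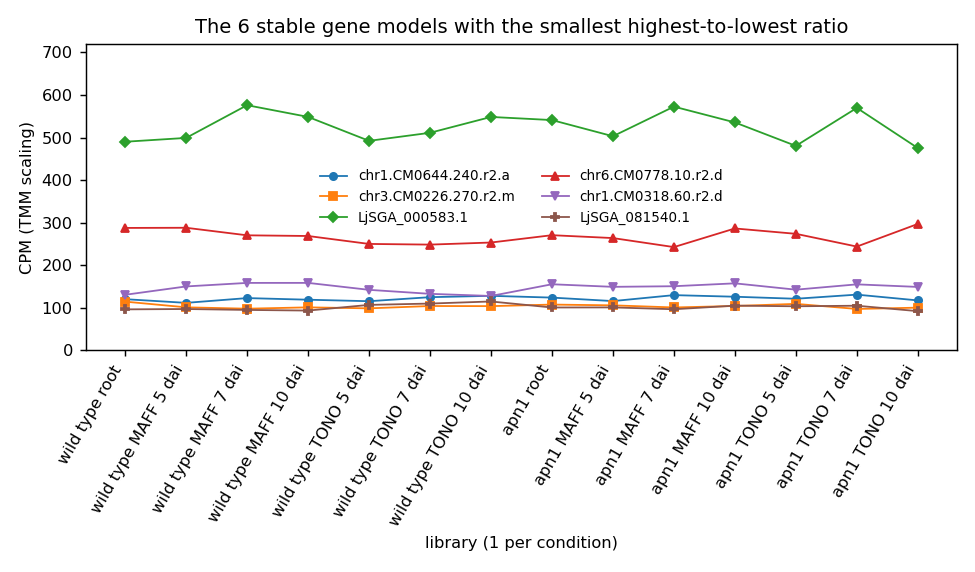
Level in CPM after TMM scaling (vertical axis, from 0) of the 6 stable gene models with the smallest highest-to-lowest ratio, in each of the 14 libraries (horizontal axis, 1 library per condition). Lines join the values of 1 gene model only to guide the eye, and the widest of the 6, LjSGA_081540.1, has a ratio of 1.25.

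At the limit of 1.5, the 3 stable gene models just inside were LjSGA_043129.1, chr5.CM0743.60.r2.m and chr1.LjT23O20.180.r2.d. LjSGA_043129.1 ran from 95.5 to 142.8 CPM, a ratio of 1.495. The levels of chr5.CM0743.60.r2.m ran from 93.3 to 139.8 CPM, a ratio of 1.498, and those of chr1.LjT23O20.180.r2.d from 85.9 to 128.8 CPM, just under the limit. Just outside stood chr6.CM0139.50.r2.d with 179.4 to 270.0 CPM and a ratio of 1.505. The ratio was also 1.505 for chr4.CM0046.280.r2.m, at 93.9 to 141.4 CPM, and 1.507 for chr5.CM1439.30.r2.d, at 167.3 to 252.0 CPM. The lists inside and outside the limit thus meet without a step.

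Some gene models over the limit came within it once 1 library was set aside. On the same scale this was so for 134 of the 1668 (8.03%). Setting aside wild type with TONO at 10 dai brought 25 within the limit, and setting aside the wild type root 24. For apn1 with TONO at 7 dai the number was 0, and for apn1 with MAFF303099 at 5 dai 2. A gene model can count under more than 1 library, where setting aside either its highest or its lowest suffices.

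Parts of the libraries were also looked at on their own, with the TMM scale and the level limits of all 14 kept. These are the values the choice rests on, so the shares below are a description. By the rule, all 112 are in each of the lists below. Over the 7 wild type libraries 191 gene models stayed within a ratio of 1.5. Of these, 147 (77.0%) also stayed within 1.5 over the 7 apn1 libraries. Among all 1780 gene models of the same level, 16.9% stayed within 1.5 in apn1. In the other direction 300 were steady in apn1, and 49.0% of them were also steady in wild type, against 10.7% of the 1780.

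The same was done by strain. Over the TONO nodules and both roots 196 gene models stayed within 1.5, and 165 of these (84.2%) did so over the 6 MAFF303099 nodules, against 25.7% of the 1780. Over the MAFF303099 nodules and both roots there were 235, of which 162 (68.9%) also stayed within 1.5 over the 6 TONO nodules, against 21.1% of the 1780. Over the 12 nodule libraries alone 219 gene models stayed within the limit, and for 51.1% of these, the 112, it still held once the roots were added.

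Within their narrow range the stable gene models were not evenly spread over the libraries. The highest of the 14 values fell in a TONO nodule in 71 of the 112 and in a MAFF303099 nodule in 18, while each strain had 6 libraries. The lowest fell in a TONO nodule in 35 and in a MAFF303099 nodule in 59. A root held the highest value in 23 and the lowest in 18. The same counts were not made for the gene models of the same level, so this is not shown to be particular to the 112. The library with most highest values was wild type with TONO at 10 dai, in 28 gene models, and that with most lowest values was apn1 with TONO at 10 dai, in 16.

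These departures were small. The median of the 112, each taken as log2 CPM minus its own mean, lay between −0.05 in apn1 with MAFF303099 at 7 dai and 0.10 in wild type with TONO at 10 dai. In the latter library the median of the 1764 gene models of the same level with no library at 0 was higher, at 0.22. The library also had the lowest TMM factor, 0.762, where the others ran from 0.902 to 1.127. With totals as the only scale its median departure of the 112 was −0.29, the lowest of all libraries, and it held the lowest value of 71 of the 112 in place of 5. It held the highest value of 33 with DESeq2's factors and of 18 with upper-quartile scaling. Which library is highest for a stable gene model therefore depends on the scaling at this size of difference.

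**Figure D3:**
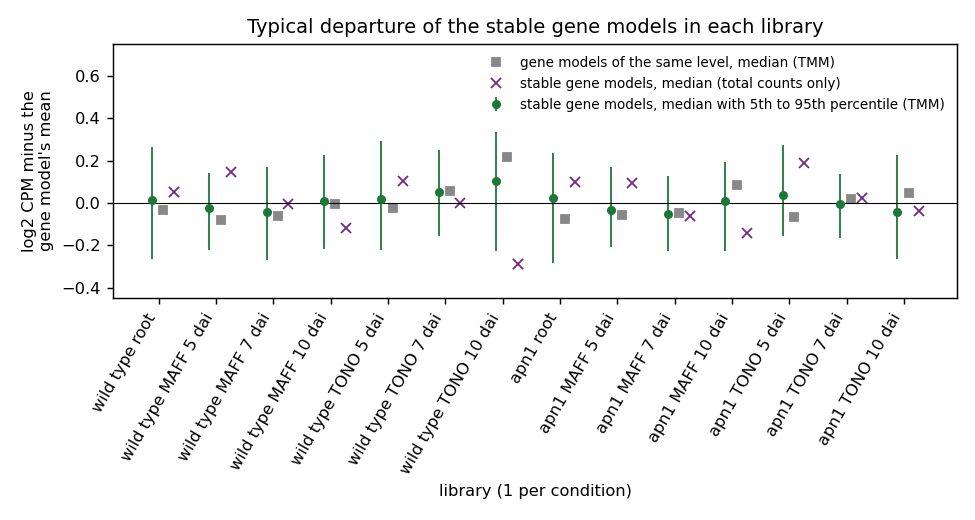
Median departure of the 112 stable gene models from their own mean log2 CPM in each library (green circles, bars from the 5th to the 95th percentile over gene models), beside that of the gene models of the same level (grey squares) and that of the 112 with total counts as the only scale (crosses). Wild type with TONO at 10 dai has the highest green circle, at 0.10, and the lowest cross, at −0.29.

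Taken as 1 sum, the 112 stable gene models held a share of each library's counts that moved with nodule age. In roots it was 2.32% in wild type and 2.38% in apn1. At 5 dai it was 2.51% and 2.42% with MAFF303099, in wild type and apn1, and 2.49% and 2.61% with TONO. At 7 dai the values in the same order were 2.28%, 2.18%, 2.28% and 2.32%. At 10 dai they were 2.11%, 2.03%, 1.84% and 2.16%, so that the 4 libraries of 10 dai lay below those of 5 and 7 dai and below both roots. Counting error was small beside this, with a 95% Wilson interval of no more than ± 0.0049 percentage points. The highest share was 1.42 times the lowest, whereas after TMM scaling the summed CPM of the 112 ran from 21547 to 24116, a ratio of 1.12. The choice by ratio on the TMM scale keeps that sum nearly steady. A library's share is the sum times its TMM factor, so the share is bound to follow the factors largely. Wild type with TONO at 10 dai, for example, had both the lowest TMM factor, 0.762, and the lowest share. The course of the share is therefore a description, and nothing about the 112 is read from it. Day and total count changed together, and the part of depth in the course of the share was not tested. With totals as the only scale, the gene models of the same level with no library at 0 moved as well. Their median departure in log2 was 0.06 to 0.09 in the 4 libraries of 5 dai. At 10 dai it was −0.13 and −0.17 in wild type with MAFF303099 and TONO, and −0.06 and 0.05 in apn1.

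The scaling set which gene models were called stable more than how many. With the median-of-ratios factors of DESeq2, 106 gene models met the rule, 105 of them among the 112. Upper-quartile scaling gave 108, of which 92 were shared, and a TMM form made for zeros (TMMwsp) gave 113, of which 108 were shared. With total counts alone 109 met the rule, but only 51 were among the 112. Under all 5 scales 47 gene models met the rule, among them chr1.CM0644.240.r2.a, LjSGA_000583.1 and LjSGA_081540.1 of the 6 steadiest.

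A measure that needs no scale is the SD over libraries of the log2 ratio between a pair of gene models, since a library's scale cancels in the ratio. Its mean over the other 111 stable gene models ran from 0.15 to 0.27, with a median of 0.20. It was smallest for chr3.CM0226.270.r2.m (0.154), LjSGA_081540.1 (0.155), chr2.CM1895.150.r2.m (0.156) and chr1.CM0644.240.r2.a (0.157). Of the 6 steadiest by CPM ratio, chr1.CM0318.60.r2.d stood lower in this order, at place 56 of 112. All 112 were chosen by their spread on the TMM scale, which bounds these values, so the order is not independent of that scale. The measure was not taken for the other gene models of the same level.

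The authors' own normalized values are the same counts on another scale. The choice by ratio had already bounded the 112, so their nearness to the root is a description and tests nothing. Each deposited table scales 1 nodule library and the root of its genotype by factors set within that pair. In 9 of the 12 tables all 112 stable gene models lay within 1.5-fold of the root, and all but 1 did in the other 3 tables. The exceptions lay above the limit with TONO in wild type at 10 dai and in apn1 at 5 dai, and below it in wild type with MAFF303099 at 10 dai. The median log2 ratio of nodule to root ran from −0.08 in apn1 with TONO at 10 dai to 0.11 in wild type with TONO at 10 dai. For the latter library the gene models of the same level had a median of 0.25. Tables of 1 genotype share their root, so these 12 values are not independent.

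**Figure D4:**
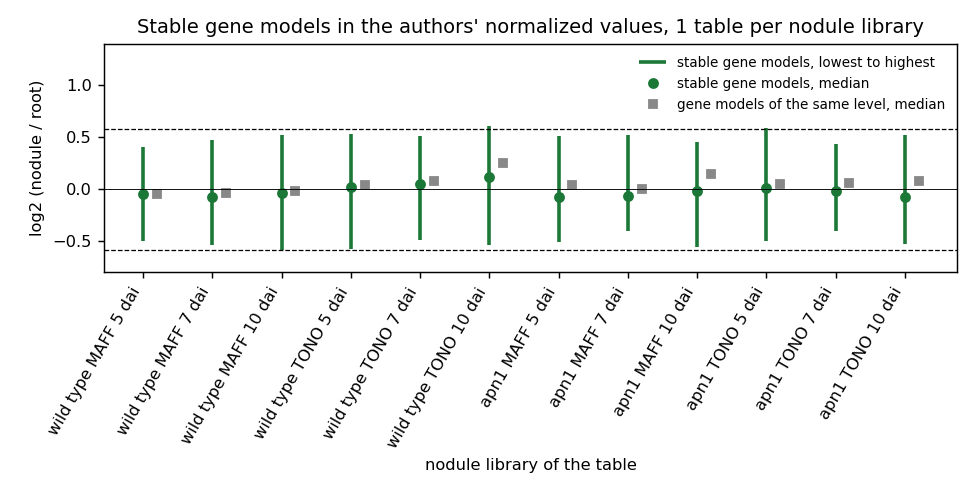
Log2 ratio of nodule to root (vertical axis) in the authors' normalized values, for each of the 12 tables (horizontal axis). Green bars span the lowest to the highest of the 112 stable gene models, green circles are their medians and grey squares the medians of the gene models of the same level. The dashed lines mark 1.5-fold, which 1 gene model passes in 3 of the tables. The choice by ratio bounds the green bars.

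Nodules and roots were compared in a model fitted to all genes, as the mean of 4 genotype-strain combinations against both roots. The fitted change was largest upward in chr4.CM1864.600.r2.m and downward in chr3.CM0292.710.r2.d. The level of chr4.CM1864.600.r2.m was 79.9 and 77.2 CPM in the wild type and apn1 roots. Its nodule libraries ran from 95.8 CPM in apn1 with MAFF303099 at 10 dai to 113.9 CPM in wild type with TONO at 5 dai, all above both roots. The fitted log2 fold change was 0.41 (SE 0.095), or 1.33-fold. For chr3.CM0292.710.r2.d the roots had 195.8 and 184.4 CPM, and the nodules 135.3 to 172.7 CPM, all below both roots. Its log2 fold change was −0.32 (SE 0.10). In whole tissue a change in the number of cells of a type and a change in RNA per cell cannot be told apart.

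Altogether 6 of the 112 were called higher in nodules and 4 lower (edgeR quasi-likelihood, Benjamini-Hochberg adjusted p under 0.05), where 21.9% of all 32777 genes tested were called higher and 23.5% lower. DESeq2 called 26 of the 112 in place of 10, and its share over all genes was not computed. In 6 all nodules lay above both roots and in 9 all lay below, against 14.1% and 16.1% of all genes tested. The choice by ratio bounds these changes, so nothing is read from the counts. The median log2 difference of the 112 was 0.00, with 55 higher and 57 lower in nodules, and the middle 90% lay between −0.27 and 0.30. For the gene models of the same level that range was −1.36 to 4.63. Without the wild type root 1 of the 112 was called and without the apn1 root 0, against 10 with both. Without apn1 with MAFF303099 at 5 dai it was 5, and at 7 dai 6. Shares over all genes were not computed for the runs without 1 library.

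Nodule age was compared as 10 against 5 dai over the 12 nodule libraries. Here chr3.LjT33M17.150.r2.d fell most. It had 230.4 and 258.0 CPM in wild type with MAFF303099 and TONO at 5 dai and 248.5 and 258.2 CPM in apn1. At 10 dai these 4 values were 175.0, 192.3, 182.5 and 188.6 CPM, below all of 5 dai and near the 182.8 and 173.9 CPM of the wild type and apn1 roots. At 7 dai it had 200.4, 214.1, 181.8 and 183.1 CPM. The log2 fold change of 10 against 5 dai was −0.42 (SE 0.10). Between 7 and 5 dai the change was −0.35 (SE 0.099), the largest fall of the 112 in that comparison as well. The values of 7 dai thus also lay below all of 5 dai.

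The largest rise between 5 and 10 dai was that of chr1.LjT23O20.180.r2.d, the last gene model inside the limit. At 5 dai it had 92.5 and 85.9 CPM in wild type with MAFF303099 and TONO and 95.4 and 89.3 CPM in apn1. At 10 dai it had 103.9, 127.2, 127.9 and 120.6 CPM in the same order, above all of 5 dai. At 7 dai the values were 86.3, 128.8, 107.6 and 90.6 CPM, which hold the highest of the 14 libraries and span nearly the whole range. The roots lay in between the extremes, at 94.5 CPM in wild type and 99.4 CPM in apn1. Its log2 fold change was 0.40 (SE 0.12).

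Of the 112, 8 were called higher at 10 than at 5 dai and 7 lower (edgeR, adjusted as above), where 23.4% and 22.4% of all 32549 genes tested were. DESeq2 called 25 of the 112 in place of 15, again without a share over all genes to set beside it. The 4 libraries of 10 dai lay above those of 5 dai in 14 of the 112 and below them in 17, against 17.8% and 19.4% of all genes tested. These counts were 14 and 15 with DESeq2's factors, 10 and 22 with upper-quartile scaling, and 0 and 57 with total counts as the only scale. Shares of all genes were computed with TMM only, so they cannot be set beside these recounts. At 7 against 5 dai 0 of the 112 were called higher and 3 lower, where 10.6% and 9.2% of all genes were. The 3 became 0 without any 1 library of 5 or 7 dai and 6 without apn1 with TONO at 10 dai. DESeq2 called 18 of the 112 in that comparison, and its share over all genes was not computed. At an unadjusted p under 0.05 edgeR had 3 higher and 14 lower. That is 17 of the 112, against 10673 of all 32549 genes tested. For 10 against 5 dai, 23 of the 112 were called without apn1 with TONO at 10 dai, against 15. Without any 1 of the other 7 libraries of 5 and 10 dai it was 5 to 8, and 8 without apn1 with MAFF303099 at 7 dai. No share over all genes was computed for any run without 1 library. Again the choice by ratio bounds these changes, and nothing is read from them.

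**Figure D5:**
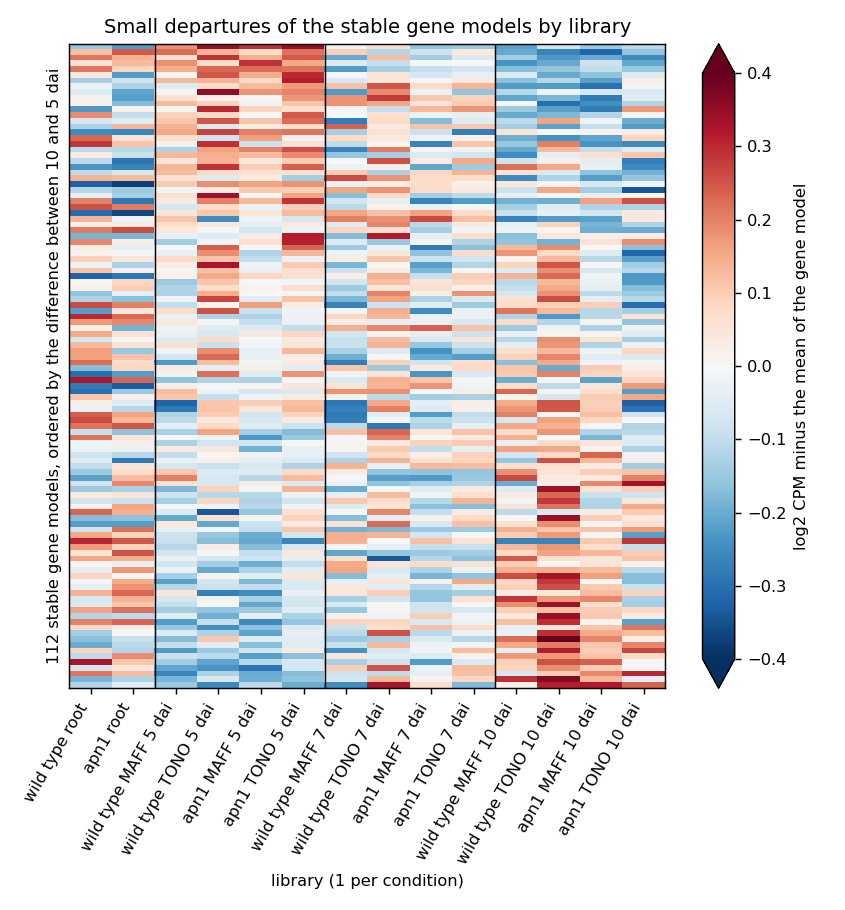
Log2 CPM minus the mean of the gene model (colour, red higher and blue lower) for the 112 stable gene models (rows, ordered by their difference between 10 and 5 dai) in the 14 libraries (columns, set out as roots, 5 dai, 7 dai and 10 dai). The top rows are lower and the bottom rows higher at 10 than at 5 dai by construction of the order.

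The genotypes were compared over the 12 nodule libraries over both strains. None of the 112 was called with edgeR or with DESeq2, where edgeR called 0.083% of all genes. The choice by ratio bounds the differences between genotypes as well, so nothing is read from the counts here. With edgeR, 2 of the 112 had an unadjusted p under 0.05, against 2786 of all 32549 genes tested. The median log2 difference between apn1 and wild type was −0.03, with the 112 between −0.24 and 0.20. With TONO alone the median was −0.06, beside −0.09 for the gene models of the same level. In 12 of the 112 all 3 apn1 libraries lay below all 3 wild type libraries, while in 1 they lay above. Of all genes tested 3.08% lay below and 3.66% above in this way. With DESeq2's factors 13 of the 112 lay below and 0 above, and with upper-quartile scaling 7 and 1. With total counts as the only scale, which moves all genes of a library alike, 0 lay below and 10 above. The shares of all genes under these other scalings were not computed. With MAFF303099 alone the median was −0.01, and 8 of the 112 lay below and 8 above, against 3.6% and 3.72% of all genes tested. Between the uninoculated roots, 1 library each, the median difference was −0.03 and the 112 ran from −0.48 to 0.34.

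The strains were compared in the same way. Their differences too are bounded by the choice by ratio, and nothing is read from the counts. Over both genotypes, 0 of the 112 were called with edgeR, as were 0 of all genes tested (0%). DESeq2 called 1 of the 112, and its share over all genes was not computed. Among the 112, 4 had an unadjusted p under 0.05 with edgeR, against 4104 of all 32549 genes tested. The median log2 difference of TONO against MAFF303099 was 0.05, beside 0.06 for the gene models of the same level. Of the 112, 86 were higher with TONO, a count not made for the gene models of the same level. In wild type the median was 0.08, beside 0.11 for the gene models of the same level. All 3 TONO libraries of wild type lay above all 3 of MAFF303099 in 16 of the 112 and below them in 3, against 4.53% and 5% of all genes tested. These counts were 17 and 3 with DESeq2's factors, 12 and 2 with upper-quartile scaling, and 0 and 6 with total counts as the only scale. For these recounts too, no share of all genes was computed. In apn1 the median was 0.03, beside 0.006 for the gene models of the same level. There, with TMM, 5 of the 112 lay above and 0 below, against 2.51% and 2.29% of all genes tested.

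Some stable gene models kept nearly fixed proportions to each other from library to library. The pair with the highest correlation of log2 CPM was chr2.CM0018.1230.r2.m and chr6.CM0057.400.r2.m, numbered on different chromosomes (Pearson's r = 0.98 over 14 libraries that share 1 scale). The former had a lowest, median and highest level of 226.5, 296.7 and 338.3 CPM and the latter of 401.3, 503.5 and 585.1 CPM. Both were highest in wild type with TONO at 10 dai and lowest in apn1 with TONO at 10 dai. Their own highest-to-lowest ratios were 1.49 and 1.46, yet their ratio stayed between 0.557 and 0.604. LjSGA_043348.1.1 and LjSGA_049841.1.1 (r = 0.97) were in a ratio of 0.991 to 1.11 in every library, and chr4.CM0126.1500.r2.m and LjB15P09.130.r2.m (r = 0.96) in a ratio of 1.13 to 1.23. Near-identical copies can share reads where counting splits them, and whether these pairs do was not tested. Over all 6216 pairs the median r was 0.08, and the lowest, −0.92, was that of chr1.CM0393.1200.r2.d and chr3.LjT23O13.150.r2.d.

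By identifier the 112 were spread over all 6 chromosomes. On chromosomes 1 to 6 there were 18, 15, 16, 16, 9 and 8, which is 4.59% to 7.05% of the gene models of the same level numbered there. The LjSGA series, which has no chromosome in the identifier, gave 28 of the 112 (25.0%) beside 16.7% of the gene models of the same level. A further 2 carried a clone name without a chromosome. On 11 contigs more than 1 stable gene model was found, 24 in all, in 15 pairs with a median r of 0.17. Only chr2.CM0237.260.r2.m and chr2.CM0237.280.r2.m had no other numbered model between them. Their levels ran from 126.9 to 185.9 CPM and from 106.3 to 139.2 CPM, both were highest in wild type with TONO at 10 dai, and their r was 0.91. Whether this pair is 1 transcript split over 2 models, or shares reads, was not tested.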

How the data were processed

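The authors deposited 12 tables. Per the file headers, each holds the original read counts of 1 nodule library and of the root of its genotype, with a normalized signal made by iDEGES/DESeq. The deposited signal equalled the count divided by 1 factor per library. Bowtie2 2.0.2 and DESeq are named in the submitters' processing notes. For the genome build, annotation, counting tool and strand setting, none is given in the sources used here. Gene models that overlap, run antisense or are near-identical may therefore share reads. Per the labels' protocols, ribosomal RNA of plant and gram-negative origin was depleted before ScriptSeq library preparation. Root counts were identical wherever a root was repeated, so each entered 1 time. Of the identifiers, 0 matched the RefSeq table (assembly LjGifu_v1.2).

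CPM was computed over all 38476 gene models without a pseudocount. Tests ran on genes whose mean count, with totals made equal, was 10 or more. The terms were genotype-strain combination and day, without interaction. Both roots formed 1 level, so the wild type and apn1 roots stood as replicates of each other. Nodules were not paired with the root of their genotype. The fits left 7 residual degrees of freedom with roots and 6 without, and p-values measure only that remainder. SE is the log2 fold change over the square root of F. The code was tested on simulated data whose changes were all larger than 1.5-fold, so recovery of smaller changes was not tested. The tools were edgeR 4.0.16, DESeq2 1.42.0 and limma 3.58.1 under R 4.3.3, with matplotlib 3.10.9 under Python 3.11.15.

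By rule, the text names the 6 steadiest gene models, 3 on either side of the limit, and the called one with the largest change each way per comparison; other identifiers were chosen after their values were seen. The rule for the stable gene models, and these lists, were chosen with earlier results of these data known.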

Additional observations from a re-analysis of the deposited data

How the results depend on the processing

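The number of stable gene models stayed within 1.5 times of 112 under 4 other scalings, without an upper limit in roots, and without the libraries of 5 or of 7 dai. It was 23 at a ratio limit of 1.3, 48 at 1.4 and 497 at 2, 310 at a mean of 50 CPM and 31 at 200 CPM. It was also counted in fewer libraries, scaled anew and with the level limits taken over the libraries left. The number was then 286 without 10 dai, 235 in nodules only, 182 in wild type and 298 in apn1. With MAFF303099 and roots it was 228, and with TONO and roots 195. In nodules only the root limit did not apply, because no root was left. Fewer libraries also give fewer chances to pass the limit. Without single libraries the number of stable gene models ran from 110 to 141. DESeq2 called 26 of the 112 between nodules and roots, 25 for 10 against 5 dai, 18 for 7 against 5 dai and 1 between the strains. DESeq2's shares over all genes were not computed, so these counts cannot be set against a general rate. Without single libraries edgeR called 0 to 15, 5 to 23 and 0 to 6 in the first 3 of these and 0 for genotype and strain. For 7 against 5 dai the count was 0 without any 1 library of 5 or 7 dai and 6 without apn1 with TONO at 10 dai. Shares over all genes were not computed for the runs without single libraries either.

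Counts of gene models whose groups do not overlap were recomputed under other scalings, a choice made after seeing the data. With total counts only, TONO lay above MAFF303099 in wild type in 0 of the 112 and below in 6, apn1 lay below wild type with TONO in 0 and above in 10, and 10 dai lay above 5 dai in 0 and below in 57. With upper-quartile scaling apn1 lay below wild type with TONO in 7, and with DESeq2's factors it lay above in 0. The shares of all genes under these scalings were not computed, so the recounts have no general rate beside them. The cause was not tested. The labels give no replicate numbers to pair by; days and genotype-strain combinations were matched as additive terms of the fit. Counting error allowed about 4.05% at most, and the limit set by the lack of replicates was not measured.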
